A study of Mus musculus with 2 samples.

Results

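Heat shock proteins are molecular chaperones that bind unfolded proteins and help them to fold, assemble or be degraded. HSP70 proteins work in cycles of ATP hydrolysis that are started by DnaJ cochaperones, which deliver clients through their J domain, and are reset by nucleotide exchange factors such as the HSP110 proteins. HSP90 proteins finish the folding of kinases and receptors, small heat shock proteins hold unfolded clients, and chaperonins enclose them. Separate sets of these proteins serve the cytosol, the endoplasmic reticulum (ER) and the mitochondria, and in macrophages, as in other cells, part of the genes are switched on by heat shock factors or by the unfolded protein response.

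The genes described here are those whose symbol names an HSP70 or HSP110 (Hspa, Hsph), small heat shock protein (Hspb), chaperonin (Hspd, Hspe), HSP90 or DnaJ (Dnaja, Dnajb, Dnajc) protein. By that rule 70 of the 18193 genes named on the array were members, with 169 probe sets, and each gene was read from its brightest probe set, by the mean linear signal. They were measured in peritoneal macrophages from male C57BL/6 mice, 48 h after transfection with control siRNA or with HDAC9 siRNA, 1 array each. HDAC9 is a histone deacetylase of class IIa. The design asks which genes differ when HDAC9 is knocked down. The labels give no genetic modification and do not say how the macrophages were elicited, whether mice were pooled or which siRNA sequence was used. Since each group had a single array, cultures could not be compared with each other, no test was possible and each difference below is one between these 2 arrays. In such bulk RNA, fewer cells of a type and less RNA per cell cannot be told apart.

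Values are the deposited log2 signals, and every log2 ratio sets HDAC9 siRNA over control siRNA, so that values above 0 are higher with HDAC9 siRNA. A probe set was above background when its log2 signal exceeded 6.34, the 95th percentile of 80 probe sets for olfactory and vomeronasal receptors, and lower signals were raised to that level before the ratio was taken. The siRNA target was itself near this level: Hdac9 read 6.88 with control siRNA and 5.69 with HDAC9 siRNA, the latter below background, and was thus at least 1.46-fold lower by this probe set. Its other probe set was below background on both arrays (5.99 and 5.94), so the check of the target rests on 1 of 2 probe sets. Of 10 macrophage markers 9 were above background, and Timd4 was not. Adgre1 was at 12.7 on both arrays, but the markers were not all equal. Of the 9, 5 were higher and 4 lower, with log2 ratios from -0.46 (Cd14) to 0.46 (Gata6). Fcgr1 was at 0.43 and Mertk at 0.37. The T cell receptor genes Cd3d, Cd3e and Cd3g and the B cell genes Cd79a, Cd79b and Ms4a1 were below background on both arrays. Of the other lymphocyte markers, Cd4 was also below it, while Cd8a was above it with control siRNA only (7.13), Thy1 on both arrays (7.74 and 7.03) and Pax5 with HDAC9 siRNA only (6.74). Of 4 neutrophil markers, S100a8 (9.13 and 8.91) and Csf3r (8.31 and 8.76) were above background on both arrays, and S100a9 and Elane on neither.

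Heat shock factors bind heat shock elements, and ATF6 with its partners binds ER stress elements. Stretches of promoter that hold the letters of such elements are shown because they belong to members whose levels are commonly read as signs of protein stress. RefSeq promoters of assembly GRCm38.p6, taken over the 250 bases before the start, were found for 57 members. In the windows below, capitals mark matches to the heat shock element (GAANNTTC or TTCNNGAA, each its own reverse complement) in the first 4 lines; where both pairs overlap they form 3 units. In the last 3 lines they mark the ER stress element, CCAAT and CCACG with 9 bases of any kind between them, on either strand. A match is a match of letters, not a shown binding site.
Hspa1b, chr17:34959315-34959362, minus strand: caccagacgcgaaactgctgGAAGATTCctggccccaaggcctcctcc
Hspb1, chr5:135887782-135887849, plus strand: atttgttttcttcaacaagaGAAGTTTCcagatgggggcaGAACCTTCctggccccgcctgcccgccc
Hspe1, chr1:55088039-55088096, plus strand: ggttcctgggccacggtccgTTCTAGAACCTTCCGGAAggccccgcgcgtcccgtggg
Dnajb6, chr5:29735832-29735884, plus strand: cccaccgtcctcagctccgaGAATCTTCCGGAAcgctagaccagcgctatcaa
Hspa5, chr2:34772005-34772063, plus strand: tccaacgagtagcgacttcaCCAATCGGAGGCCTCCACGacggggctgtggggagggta
Hsp90b1, chr10:86705513-86705676, minus strand: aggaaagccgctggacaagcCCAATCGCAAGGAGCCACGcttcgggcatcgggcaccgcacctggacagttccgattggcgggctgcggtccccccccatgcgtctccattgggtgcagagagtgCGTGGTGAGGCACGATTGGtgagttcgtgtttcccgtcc
Dnajc3, chr14:118937807-118937865, plus strand: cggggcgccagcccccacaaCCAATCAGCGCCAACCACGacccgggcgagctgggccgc
The window of Hspa1a is the same as that of Hspa1b letter for letter, and over all 250 bases the promoters of these neighbouring genes were 98.8% identical. The promoters of Hspe1 and its head-to-head neighbour Hspd1 overlap, and both 3-unit matches in the Hspe1 window also lie in that of Hspd1. A heat shock element pair was found in 14 of the 57 members (24.6%), against 14.5% of 27025 genes with a promoter in the same table. The 3-unit form was found in 3 members (Hspe1, Hspd1 and Dnajb6) and 0.514% of genes, and the ER stress element in 3 members (Hspa5, Hsp90b1 and Dnajc3) and 0.130% of genes.

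Of the 70 members, 59 exceeded the background level, 58 of them on both arrays. No member was at least 2-fold higher or at least 2-fold lower on the HDAC9 siRNA array, where 1.44% and 0.372% of all 12090 genes above background were. At 1.5-fold, 2 members were higher (Dnajb13 and Hspb2) and 2 lower (Hspb7 and Dnajc17). Each pair is 3.39% of the 59, while the same threshold was passed by 7.81% of all genes upward and 2.79% downward. Members had ratios from -0.66 to 0.90 with a median of -0.01, and the median of all genes was 0.03.

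**Figure D1:**
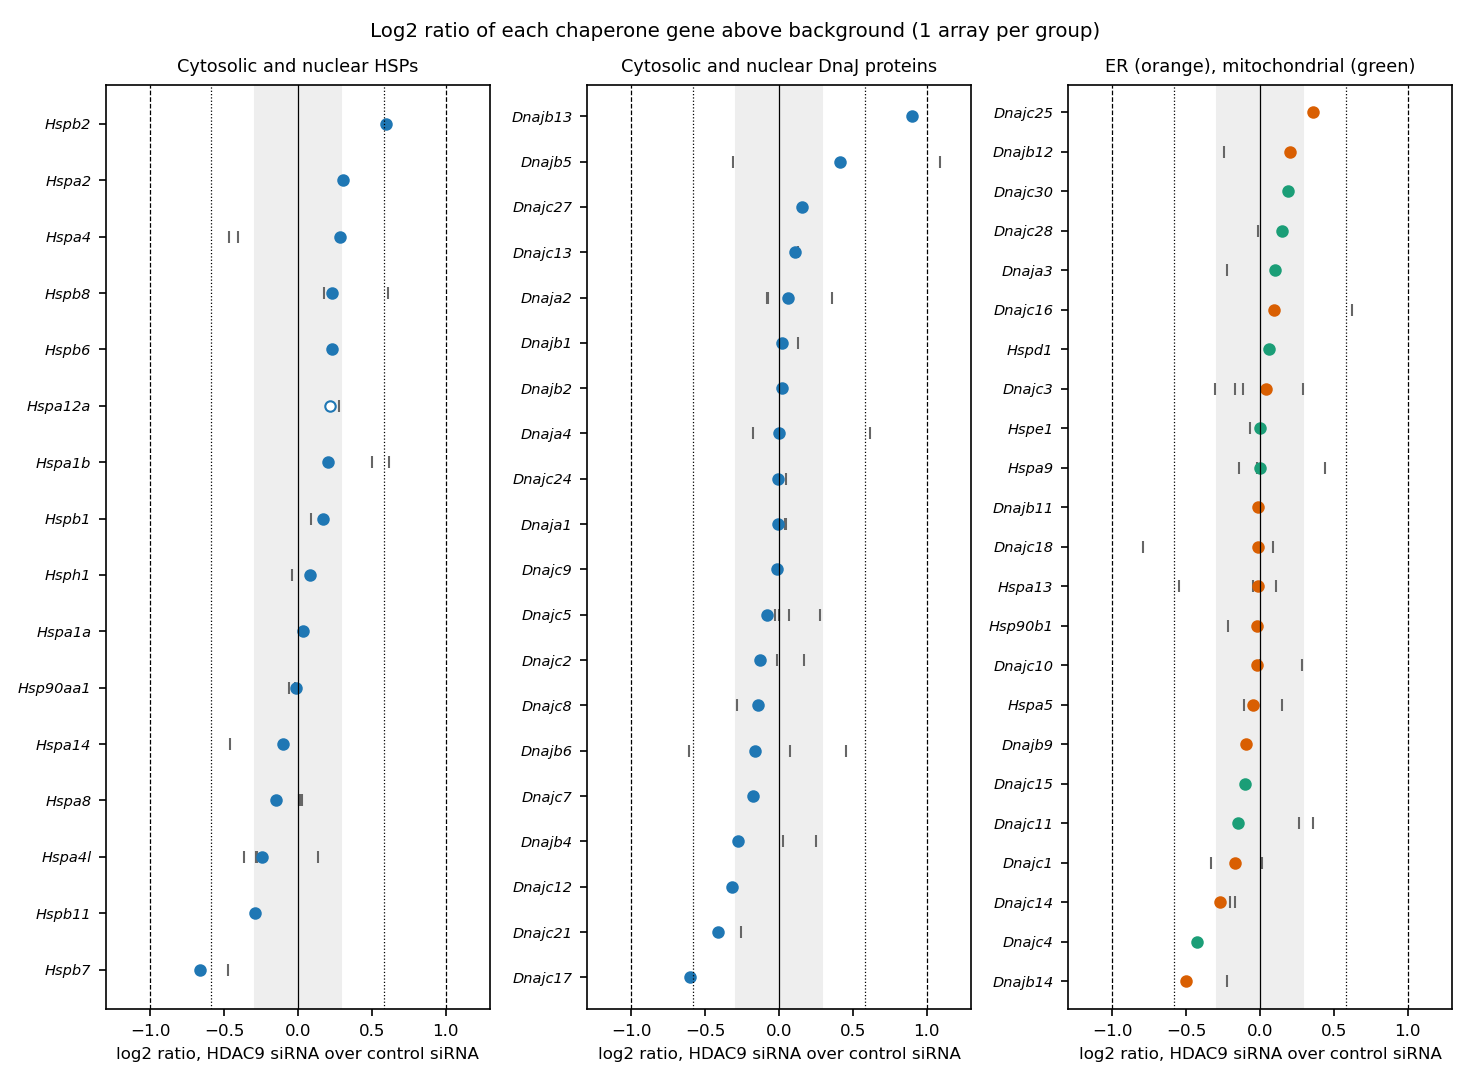
Log2 ratios (HDAC9 siRNA over control) of the 59 members above background, with 1 array per group. Circles show the brightest probe set (open where 1 array was below background), ticks the gene's other probe sets above background, the grey band the scatter of ±0.29 between probe sets of 1 gene, dotted lines 1.5-fold and dashed lines 2-fold. Every circle lies between the dashed lines, and 48 of the 59 lie inside the band.

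A measure of scatter within these arrays came from the 5671 genes with several probe sets above background, whose ratios for the brightest and next brightest probe set differed with a standard deviation that corresponds to 0.29 per probe set. This covers reading error and differences between transcripts, not differences between cultures. The ratio was smaller than 0.29 in size for 48 of 59 members (81.4%) and for 65.7% of all genes above background. Members were also brighter than most genes: 25 of them fell in the brightest of 4 equal bins of genes by mean signal. In that bin 25 of 25 members and 85.0% of all genes had a ratio smaller than 0.29. From the next brightest bin to the dimmest, 13 of 16, 5 of 10 and 5 of 8 members did, against 73.0%, 58.9% and 46.0% of genes. The members' share was thus below that of all genes in 1 of the 4 bins.

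**Figure D2:**
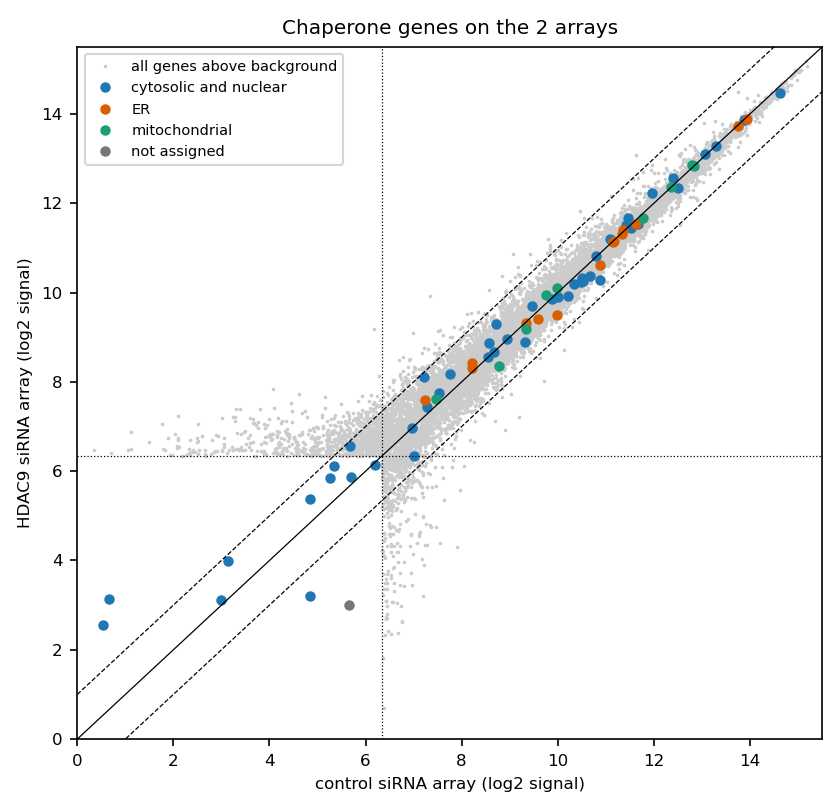
Deposited log2 signal on the control array (horizontal) and on the HDAC9 siRNA array (vertical) for the 70 members, coloured by compartment, over all genes above background in grey. The solid line marks equal signal, dashed lines 2-fold and dotted lines the background level of 6.34. The members above background follow the solid line, and the 11 below background on both arrays lie in the lower left, where signals have no order.

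The HSP70 proteins of the cytosol include the constitutive chaperone Hspa8 and the stress-induced pair Hspa1a and Hspa1b. Hspa8 read 14.6 with control siRNA and 14.5 with HDAC9 siRNA, a log2 ratio of -0.15, while its 3 dimmer probe sets had ratios of 0.01 to 0.03. Hspa1a was at 8.93 and 8.97 (0.04). Hspa1b was at 11.5 and 11.7 (0.21), and its other probe sets had larger ratios, 0.50 and 0.62, so that all 3 were higher on the HDAC9 siRNA array. The protein-coding parts of Hspa1a and Hspa1b are nearly identical, so it is uncertain that each probe set reads only 1 of these genes. When _s_at, _x_at and _a_at probe sets were left out, Hspa1b was read from the last of the 3 and passed 1.5-fold.

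Hspa2, a relative best known from male germ cells, was at 8.57 and 8.88 (0.30), and Hspa14, a ribosome-associated form, at 10.0 and 9.91 (-0.10). Hspa12a was above background on the HDAC9 siRNA array only (6.56), which made its ratio of 0.22 a lower bound. Hspa12b and Hspa1l were below background on both arrays.

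The HSP110 proteins, exchange factors for HSP70, were mixed. Hsph1 was at 11.4 and 11.5 (0.08). Hspa4 was at 12.0 and 12.2 (0.28) by its brightest probe set, but the next 2 gave -0.40 and -0.47, and the median over its probe sets above background was -0.40. Hspa4l was at 10.5 and 10.2 (-0.24), with 4 of its 5 probe sets below 0. The direction of Hspa4 thus depended on the probe set.

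Cytosolic HSP90 was represented by the stress-induced form Hsp90aa1, at 13.9 on both arrays (-0.02), with its other probe sets above background at -0.02 and -0.06. After quantile normalization or loess its ratio was above 0. Hsp90ab1 was not analysed here.

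Small heat shock proteins held the widest spread of the HSP families, and 6 of 8 were above background. Hspb2, known mainly from heart and skeletal muscle, was at 8.71 with control siRNA and 9.31 with HDAC9 siRNA, 1.51-fold higher, and was read by 1 probe set. After centring, quantile normalization or loess its ratio was 0.57, 0.55 and 0.55, short of 1.5-fold. Its neighbour in the genome, the small heat shock protein gene Cryab, looked up after the values of Hspb2 were seen, was at 12.7 and 12.8 (0.12). Hspb7, a form of heart muscle, was at 7.01 and 6.35, 1.58-fold lower. Its second probe set was also lower as a bound (-0.47), but the value on the HDAC9 siRNA array lay only just above background, and with the background level at the 99th percentile the ratio was -0.09.

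Hspb1, the widely expressed HSP27 gene with heat shock elements in its promoter, was at 12.4 and 12.6 (0.17). Hspb8, which works with the exchange factor Bag3 in selective autophagy, was at 9.47 and 9.70 (0.23), and all 3 of its probe sets were higher (0.18 to 0.61). Hspb6 was at 7.53 and 7.76 (0.23). Hspb11, a subunit of the transport particles of cilia, was at 10.2 and 9.93 (-0.29). Hspb3 and Hspb9 were below background on both arrays.

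Several of these genes are typical of muscle and stroma, and markers of mesothelial and stromal cells differed between the same arrays. All 9 of those markers were above background, 4 higher and 5 lower, with a summed linear signal of 11953 with control siRNA and 19941 with HDAC9 siRNA. The 4 higher were Col1a1 (log2 ratio 1.80), Col3a1 (1.46), Wt1 (0.44) and Upk3b (0.24). Of the 5 lower, Krt8, Krt18, Krt19 and Pdgfrb were at -0.17, -0.44, -0.18 and -0.18. Msln was at -1.11, but its value with HDAC9 siRNA (6.39) lay only just above background. The part of mesothelial and stromal cells in the ratios of Hspb2, Hspb6, Hspb7 and Hspb8 was not tested.

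DnaJ proteins of classes A and B resemble the bacterial protein most closely. Dnaja1 and Dnaja2, the main class A partners of cytosolic HSP70, were at 13.3 on both arrays (-0.01) and at 13.1 on both (0.06). Dnaja4 was at 6.97 and 6.96 (0.00), with dimmer probe sets at 0.62 and -0.18 as bounds. Dnajb1, the heat-induced partner of HSP70, was at 10.8 on both arrays (0.02), and its second probe set gave 0.13. Dnajb2 was at 8.54 and 8.56 (0.02). Dnaja1 and Dnajb1, both induced by heat, therefore lay within the scatter. So did 85.0% of all genes in the brightest bin, to which both belong.

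The largest difference among all members was that of Dnajb13, a component of the radial spokes of motile cilia and sperm tails. It was at 7.21 with control siRNA and 8.11 with HDAC9 siRNA, 1.87-fold higher, from 1 probe set in the dimmest of the 4 bins. In that bin 15.9% of all genes were at least 1.5-fold higher. Its ratio stayed between 0.79 and 0.90 under the 8 alternative settings, but most of these could hardly move it. They change the background level or the choice of probe sets, and its only probe set was above background on both arrays. Centring, quantile normalization and loess gave 0.87, 0.80 and 0.79.

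Dnajb5, which is known to bind the class IIa deacetylase HDAC4, was at 7.75 and 8.17 (0.41). Its probe sets disagreed: the second was below background with control siRNA (5.67) and at 7.43 with HDAC9 siRNA, at least 2.13-fold higher, and the third was lower as a bound (-0.31). Dnajb4 was at 10.5 and 10.3 (-0.28), with its other probe sets at 0.03 and 0.25. Dnajb6, which suppresses aggregation of polyglutamine proteins, was at 12.5 and 12.3 (-0.16), with others at -0.61, 0.08 and 0.45. Dnajb3, Dnajb7 and Dnajb8, genes of the testis, were below background on both arrays.

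Class C members share little beyond the J domain and are recruited to particular sites. Dnajc17, a nuclear protein linked to splicing, was at 10.9 and 10.3, 1.52-fold lower, while its other 2 probe sets were below background on both arrays. Dnajc21, a ribosome biogenesis factor, was at 9.31 and 8.90 (-0.41), and its second probe set above background was also lower (-0.26). Dnajc12, which assists aromatic amino acid hydroxylases, was at 10.7 and 10.4 (-0.32). Dnajc8, of the spliceosome, was at 11.7 and 11.5 (-0.14), and Dnajc7, which binds both HSP70 and HSP90, at 10.5 and 10.3 (-0.18).

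Near equality was seen for Dnajc5, which helps to keep secretory vesicles competent (11.5 and 11.4, -0.08), Dnajc9, a histone chaperone (9.87 and 9.86, -0.01), and Dnajc24, of diphthamide synthesis (8.68 and 8.67, -0.01). Dnajc2, bound to ribosomes, was at -0.13, Dnajc13, of endosomes, at 0.11 and Dnajc27 at 0.16. The neuronal and germline forms Dnajc6 and Dnajc5g were below background, as were Dnajc5b and Dnajc22. Of 23 class C genes above background in all compartments, 16 had a ratio below 0, with a median of -0.08. Below 0 were 45.9% of all genes, and under the 3 other scalings 15 or 16 of the 23. With the median of each gene's probe sets the count was 14 of 23 and the median -0.01, and without _s_at, _x_at and _a_at probe sets 13 of 22 and -0.05.

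All 14 ER members were above background on both arrays, and 8 of them were in the brightest bin. None reached 1.5-fold either way, which 10.6% of all genes and 2.08% of the genes in the brightest bin did. Hspa5, the HSP70 of the ER and the classic target of the unfolded protein response, was at 13.9 on both arrays (-0.05). Its other probe sets were at -0.11 and 0.15. Hsp90b1, the ER form of HSP90, was at 13.7 on both (-0.02), and its second probe set was at -0.22. Hspa5 and Hsp90b1, which both hold ER stress element letters, thus differed by less than the scatter. So did 85.0% of all genes in the brightest bin, to which both belong.

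Among the ER J proteins that the unfolded protein response induces, Dnajb9 was at 11.6 and 11.5 (-0.09), Dnajb11 at 11.2 on both (-0.01) and Dnajc3 at 11.4 on both (0.04), with its 4 other probe sets between -0.30 and 0.29. Dnajc10, a J protein with disulfide reductase activity, was at 11.3 on both (-0.02), with its other probe sets at 0.00 and 0.28. Hspa13 was at 11.1 on both (-0.02), with its others between -0.55 and 0.11. Of the J proteins anchored in the ER membrane, Dnajb14 had the largest ratio, 9.99 and then 9.49 with HDAC9 siRNA (-0.50), and its second probe set was lower too (-0.22). Its close relative Dnajb12 was at 8.22 and 8.43 (0.20), with a second probe set at -0.25.

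Dnajc14 was lower by each of its 3 probe sets (-0.17 to -0.27). Dnajc25 was at 7.24 and 7.60 (0.36), Dnajc1 at 9.58 and 9.41 (-0.17) and Dnajc16 at 8.22 and 8.32 (0.10). Dnajc18 was at 9.34 and 9.32 (-0.01), but its second probe set was at -0.79. Over the compartment 10 of 14 ratios were below 0, where 45.9% of all genes and 61.3% of those in the brightest bin were. The ER count became 6 after quantile normalization and 5 after loess.

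Mitochondrial members were 9 in number, were all above background and held no gene past 1.5-fold, against the same 10.6% of all genes. The chaperonin Hspd1 (HSP60) was at 12.8 and 12.9 (0.06). Its cofactor Hspe1 (HSP10) was at 12.8 on both arrays (0.00), with a second probe set at -0.07. Hspa9, the HSP70 that pulls proteins through the inner membrane, was at 12.4 on both (0.00), and its other probe sets above background ran from -0.14 to 0.44. Dnaja3, its J protein, was at 9.99 and 10.1 (0.10), with a second probe set at -0.23. Dnajc15, of the import motor, was at 11.8 and 11.7 (-0.10). Dnajc4 had the largest ratio, from 8.79 to 8.36 (-0.42), by its single probe set. Dnajc30 was at 0.19 and Dnajc28 at 0.15, the latter with a second probe set at -0.01. Dnajc11, of the cristae-organising complex, was at -0.15, but its other probe sets above background were at 0.36 and, as a bound, 0.26. Dnajc19 was not analysed here, because its 3 probe sets also carry the symbol of a pseudogene.

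Of the members with a heat shock element pair, 13 were above background. Their ratios ran from -0.28 (Dnajb4) to 0.23 (Hspb6) with a median of 0.04, and 8 of 13 were above 0, against 54.1% of all genes. The other 35 members with a promoter in the table and above background ran from -0.66 to 0.90, with a median of -0.01. The 3 genes with an ER stress element lay between -0.05 and 0.04.

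How far probe sets of 1 gene agreed could be read in 40 members with at least 2 of them above background. All probe sets had the same direction in 15 members (37.5%), against 48.1% of the 5671 genes of this kind. The members and these genes were not matched for the number of probe sets or the size of the ratio, which both affect this share. In 7 of the 15 all were higher (Hspa1b, Hspb1, Hspb8, Hspa12a, Dnajb1, Dnajc13 and Dnajc16) and in 8 all were lower (Hspb7, Hsp90aa1, Hsp90b1, Hspa14, Dnajb14, Dnajc8, Dnajc14 and Dnajc21). The other 25 members had probe sets of both signs. The distance from the lowest to the highest ratio of a gene had a median of 0.32 in members and 0.36 in all genes of this kind. In members that was more than the size of most of their own ratios.

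**Figure D3:**
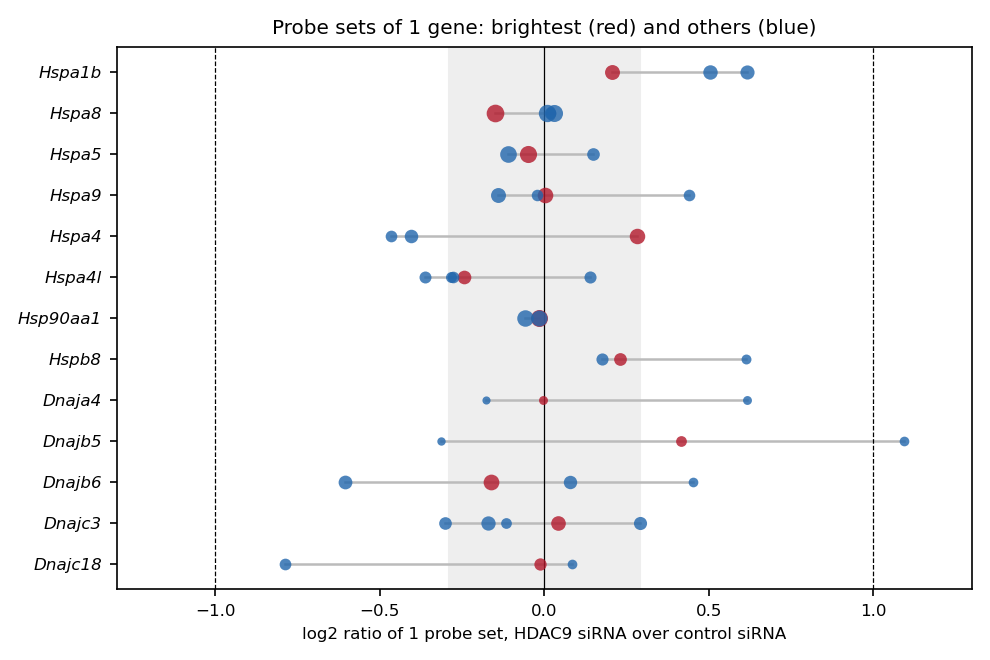
Log2 ratio of each probe set above background for 13 members chosen to show agreement and disagreement; the red circle is the brightest probe set, blue circles are the others and larger circles have higher signals. The grey band is ±0.29 and dashed lines mark 2-fold. The 3 probe sets of Hspa1b all lie to the right of 0, while those of Hspa4, Dnajb5 and Dnajb6 lie on both sides.

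Genes that work with these chaperones were measured on the same arrays, in 7 lists. None of their 94 genes above background was past 2-fold, where 1.81% of all genes were. Of the heat shock factors and their regulators, 4 of 5 measured genes were above background, and Hsf4 was above it on the HDAC9 siRNA array only, at least 1.61-fold higher. Hsf2 was above it on the control array only (-0.20 as a bound), and Hsbp1, which restrains heat shock factor, was at -0.15. Hsf1 was not analysed here. Of 15 cochaperones and exchange factors of HSP70, Sgtb had the largest ratio (7.27 and 7.97, 0.70), followed by Bag3, the stress-induced exchange factor (9.58 and 10.2, 0.58), and Tomm34 (0.32). Their median was 0.00, with 8 above 0 and 7 below.

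Of 18 HSP90 cochaperones above background, Fkbp5, an immunophilin of steroid receptor complexes that glucocorticoids induce, had the largest ratio. It was at 8.33 with control siRNA and 9.21 with HDAC9 siRNA, 1.85-fold higher, while its relative Fkbp4 was at -0.11. Tsc1 was at 0.39 and Fnip2 at 0.35, and the list's median was -0.02 with 9 above 0 and 9 below. The subunits of the chaperonin TRiC and of prefoldin, 14 genes above background, ran from -0.25 (Pfdn2) to 0.29 (Cct3), with Vbp1 at -0.22 and a median of -0.01.

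In the ER, 18 chaperones and folding enzymes had a median of -0.04. The largest ratio was that of Serpinh1, the collagen chaperone HSP47, at 12.3 and 12.8 (0.47). Ero1b was at -0.33 and Sdf2l1, a partner of Hspa5, at -0.28. Regulators of the unfolded protein response had ratios above 0 in 10 of 12 genes, or in 9 of 12 under each of the other scalings. Above 0 were 54.1% of all genes. The median of these regulators was 0.14, against 0.03 for all genes. The largest were Atf5 (9.99 and 10.6, 0.60), Ddit3 (10.9 and 11.3, 0.45) and the kinase gene Eif2ak3 (0.36), and Xbp1 was at -0.08. Partners and proteases of the mitochondrial chaperones had a median of -0.04 over 13 genes, led by the protease Lonp1 (9.62 and 10.1, 0.52), with Tomm70a at 0.26 and Grpel1, the exchange factor of Hspa9, at -0.24.

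**Figure D4:**
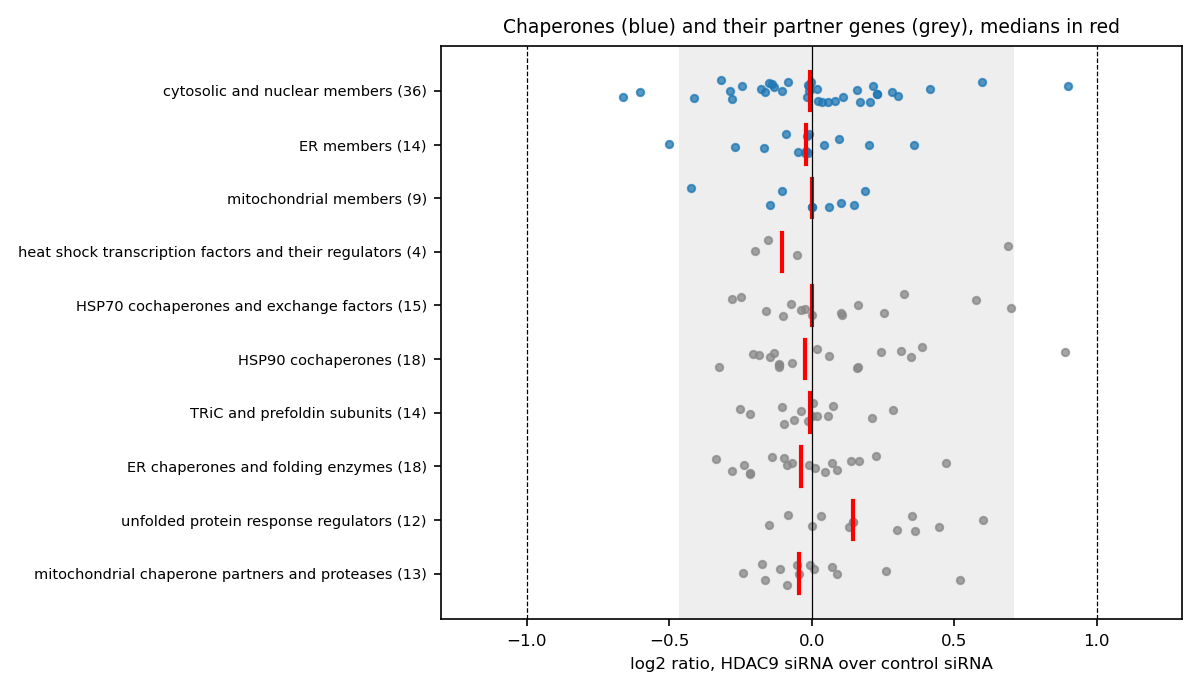
Log2 ratios (HDAC9 siRNA over control) for members by compartment (blue) and for 7 lists of partner genes (grey), 1 point per gene above background, with the number of genes in brackets and the median as a red bar. The grey band runs from the 5th to the 95th percentile of all genes above background (-0.46 to 0.71) and dashed lines mark 2-fold. All medians lie between -0.10 and 0.14, and no point lies beyond 2-fold.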

How the data were processed

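Per the submitters' processing notes, signals were made with MAS5, which reduces the probes of a set to a single value (version, scaling target and detection calls not given in the sources used here). Deposited were log2 signals from 0 to 15.2 for 45037 probe sets on 2 arrays. The mean linear signal without the top and bottom 2% was 497 on both, so the scaling was kept. Gene names came from the platform's 2016 annotation: 34945 had 1 gene symbol, 932 several and 9160 none, and only the first kind was used. All 70 members matched the RefSeq table by gene identifier. Compartments were assigned by hand from general knowledge.

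Members, lists and settings were chosen with earlier results of these data known. Named genes were members past 1.5-fold, those largest in each compartment or family, constitutive and stress-induced chaperones, members whose probe sets disagreed, and up to 3 genes per partner list; others were added for completeness. Calculations used Python 3.11.15 with pandas 2.3.3 and were tested on simulated data. The number of arrays limits the precision. Planned protein sequence features were not analysed here.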

Additional observations from a re-analysis of the deposited data

How the results depend on the processing

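Each summary was recomputed under 8 alternatives, and counts past 2-fold also at other thresholds. Of 216 such values 195 stayed close to the main one. Close meant a count at most 1.5-fold away, or a median that moved by less than a tolerance. That tolerance came from the scatter of 0.29 and the number of genes, and exceeded the size of most medians. A median could thus change sign and still be close, and a count of 0 at 2-fold had to stay 0 at 3-fold. Without a background level (pseudocount of 1), 2 members passed 2-fold upward and 2 downward, where 2223 and 1481 of 18193 genes did. At 1.5-fold 7 and 4 of the 70 members passed, against 19.9% and 12.4% of genes. Of these 11, 10 were cytosolic or nuclear, as were 10 of the 11 members below the main background level. In the partner lists, 1 HSP90 cochaperone and 1 heat shock factor gene passed 2-fold without a background level. With the level at the 75th percentile 4 members were at least 1.5-fold higher, against 13.0% of all genes, and 1 heat shock factor gene passed 2-fold. With it at the 99th 1 member was 1.5-fold lower, against 1.95% of all genes. Centring, quantile normalization and loess each left 1 member 1.5-fold higher, against 7.13%, 6.11% and 5.81% of all genes. The median over probe sets left 1 lower, against 2.36%. Past 1.5-fold in the partner lists were 1 heat shock factor gene, 1 HSP70 cochaperone, 1 HSP90 cochaperone and 1 unfolded protein response regulator. These lists held 94 genes above background, and 10.6% of all genes passed 1.5-fold either way. The median over probe sets moved HSP70 cochaperones to 0.10, and dropping _s_at, _x_at and _a_at probe sets moved HSP90 cochaperones to 0.15 and ER folding enzymes to -0.14. The cause was not tested. Of 463 member values, 451 moved by less than 0.29 and 12 by more. Many of them could hardly move, so these counts do not measure stability. Another background level leaves genes well above it unchanged, and centring shifted all genes alike by -0.03. The median over probe sets cannot change a gene with 1 probe set. Among members past 1.5-fold 0 changed sign, while 24 of 59 members did so under at least 1 alternative. Genes past 1.5-fold numbered 944 higher and 337 lower, or 3625 and 2254 without a background level. No paired analysis was possible because each group had 1 array.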

Other observations

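Of the 4 bins of genes ranked by mean signal, the one next to the brightest held members that were mostly lower on the HDAC9 siRNA array. Of 16 such members 13 had a ratio below 0, with a median of -0.16, while 47.4% of the 3022 genes in that bin were below 0 and their median was 0.02. The exceptions were Hspb8, Dnajc30 and Dnaja3, and the genes farthest below 0 were Dnajc17, Dnajb14 and Dnajc12. The count was 13 after centring, quantile normalization and loess, 12 with the median of each gene's probe sets, and 11 of 15 without _s_at, _x_at and _a_at probe sets. The bin was singled out after the values were seen, and in the brightest bin 14 of 25 members were below 0, against 61.3% of all genes there. In the dimmer bins most members were higher: 7 of 10 in the bin above the dimmest (median 0.07), where 60.2% of genes were higher, and 6 of 8 in the dimmest (median 0.19), where 64.9% were.

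Some probe sets that did not stand for their gene differed more than the one that did. Past 1.5-fold were dimmer probe sets of Dnajb5 (1.09 as a bound), Dnajc18 (-0.79), Dnajc16 (0.62), Hspa1b (0.62), Dnaja4 (0.62 as a bound), Hspb8 (0.61) and Dnajb6 (-0.61).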
